A study of Mus musculus with 16 samples.

Results

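The genes described here are those that make an islet cell an endocrine cell, apart from the hormones themselves. A list of 33 symbols was looked up in a table of 15156 genes, and all 33 were present. By role they are 9 transcription factors of endocrine identity, 16 genes of the secretory granule and hormone processing, and 8 genes of glucose sensing and incretin or glucagon reception. RNA came from whole pancreas of mice aged 6 to 10 weeks, 4 animals in each of 4 genotype groups. WT mice were wild type, with no Cre transgene named. DC mice were Daxx fl/fl, MC mice Men1 fl/fl and DMC mice Daxx fl/fl Men1 fl/fl, each with the Pdx1-Cre transgene, so that Cre was placed under the promoter of a gene used by pancreatic progenitors and islet cells. Every animal, WT included, had received caerulein, a cholecystokinin analogue that injures acinar cells, at 50 ug/kg in 4 hourly injections on 3 days a week for 3 weeks, and tissue was taken 5 days after the last treatment.

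Endocrine cells are a small minority of the pancreas. Their transcription factors switch on hormone genes, prohormone convertases and other enzymes cut the precursors inside dense-core granules, and granins help such granules to form. In the beta cell, glucose enters and is metabolised, a potassium channel closes, calcium enters and granules are released, a step that incretin receptors amplify. Menin, the product of Men1, is a chromatin scaffold whose loss causes endocrine tumours in the pancreas, and Daxx delivers the histone variant H3.3 to chromatin and is mutated in pancreatic endocrine tumours.

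Recovered reads came to 13481063 to 23728309 per library, of which the 10 most abundant genes took 33.5% to 51.8%. As a check of the labels, mean Men1 transcripts were lower in MC (132 ± 13.3 normalized counts, SD, n = 4) and DMC (168 ± 10.6) than in DC (482 ± 61.9) and WT (368 ± 61.3). For Daxx the DC mean was 223 ± 15.6, that of DMC 182 ± 30.4, that of MC 246 ± 26.1 and that of WT 263 ± 65.0, and its difference from WT did not pass the test in DC (limma adjusted p = 0.683) or in DMC (0.193). The label of the tissue was checked on islet hormones, which were all present: Ins1 averaged 7719 normalized counts in WT and Gcg 8182.

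Promoter sequence was read for the 26 members that RefSeq's table of mouse promoters (GRCm38.p6) held, in the 250 bases before each start. The palindrome TGACGTCA, the full cAMP response element, was present in 4 of the 26 (15.4%) against 478 of 27025 genes (1.77%). These 4 promoters are shown because they include the pair of members, Scg2 and Pcsk1, whose levels differed most firmly by Men1 genotype below. Chgb and Pax6 were not called there, and the called members Ptprn, Ptprn2, Ucn3 and Glp1r were not among the 4. A link between the element and Men1 genotype was not tested. Each is a window of 30 bases, 5′ to 3′ along the gene's strand, with the element in capitals.
Scg2, chr1:79440076-79440105, minus strand: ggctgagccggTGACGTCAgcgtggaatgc
Pcsk1, chr13:75089768-75089797, plus strand: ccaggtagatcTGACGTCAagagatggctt
Chgb, chr2:132781559-132781588, plus strand: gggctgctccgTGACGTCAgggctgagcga
Pax6, chr2:105668809-105668838, plus strand: tctggccgccgTGACGTCAtccgcgcccgg
The element began 68 bases before RefSeq's start in Scg2, 78 in Pcsk1, 72 in Chgb and 76 in Pax6. GENCODE's models of Scg2 and Chgb start further upstream, so that there the element falls within the annotated gene. Whether it lies in an exon was not read. In Pcsk1 and Pax6 the element lies before the gene in both annotations. An E-box spelled CAGATG, searched on both strands, was in 4 of the 26 promoters (15.4%) and in 16.3% of all genes, and was found in Ffar1, G6pc2, Nkx2-2 and Ucn3. The core TTCAGCACC of the neuronal repressor REST (0.348% of all genes) and the homeodomain core TAATTA (5.65%) were in none of the 26 windows. A match is a run of letters and not a shown binding site.

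The members rose and fell together from library to library, across all 3 roles. The mean over the 33 genes of log2(normalized count + 1) ran from 5.73 to 7.25 in the WT libraries, from 5.93 to 7.96 in DC, from 6.46 to 8.44 in MC and from 7.13 to 9.04 in DMC. DMC replicate 4 held the highest level of 29 of the 33 genes, and WT replicate 3 the lowest of 18. DC replicate 4 held the lowest level of another 7 genes. Relative to each gene's mean over all libraries, the members' median deviation on the log2 scale was 2.04 in DMC replicate 4, 0.91 in DC replicate 1, −1.60 in WT replicate 3 and −1.28 in DC replicate 4. The median deviation of the 8 islet and ghrelin hormone genes was alike, at 2.07, 1.26, −1.87 and −1.38 in the same libraries and order. That of the 11 acinar markers was −0.26, −0.83, −0.01 and 0.21, again in that order. In whole tissue, more endocrine cells, more RNA per endocrine cell and a smaller share of acinar RNA cannot be told apart.

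**Figure D1:**
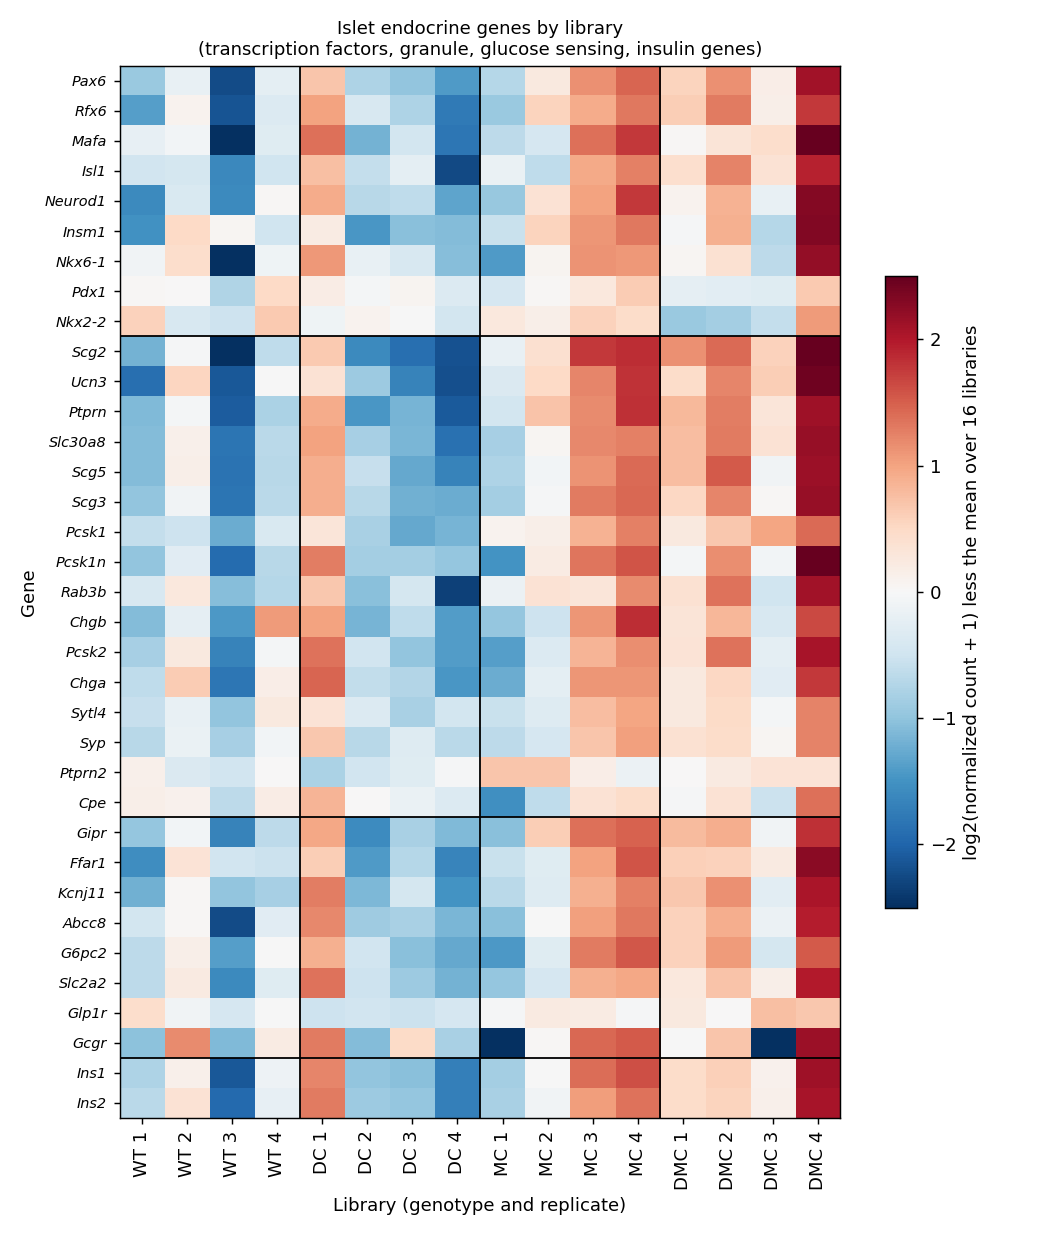
Heat map of log2(normalized count + 1) for the 33 members and both insulin genes in the 16 libraries, each row less its own mean, with colours that saturate at 2.5 in either direction; horizontal lines separate transcription factors, granule genes, glucose-sensing genes and insulin genes, and vertical lines the genotypes. Whole columns share a colour: DMC replicate 4, which held the highest level of 29 members, is red, and WT replicate 3, which held the lowest of 18, is blue.

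Levels were set side by side per kilobase of exon, as means over the 16 libraries. Granule genes were the most abundant role, with a median of 176 normalized counts per kb, against 34.3 for glucose sensing and 17.2 for the transcription factors. Scg2, which encodes secretogranin II, led at 1247 per kb, followed by the granin gene Chga at 785, Cpe at 510 and G6pc2 at 470. The lead of Scg2 came from MC (1751) and DMC (2356). In WT it stood at 422, below Chga (558) and Cpe (457), and in DC at 458, below Chga (671) and Cpe (519). The scarcest members were the glucagon receptor gene Gcgr at 2.74 and Rab3b, a small GTPase of secretory vesicles, at 3.61 per kb.

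Men1 floxed libraries held more of most members than libraries without floxed Men1. The contrast set the mean of MC and DMC against the mean of WT and DC. Only WT had no Cre transgene named, so genotype is partly mixed with Cre here and wholly so in comparisons against WT. DMC against DC, given below, is matched for Cre. At a limma adjusted p under 0.05, 6 of 33 members were higher and 0 lower. Of all 14220 genes tested 3.02% were called, 1.88% higher and 1.15% lower. The members' median difference was 1.22 on the log2(normalized count + 1) scale, that of all genes was 0.00, and 32 of 33 differences were above 0 against 49.1% of all genes. At an unadjusted p under 0.05, 25 members were higher and 0 lower, against 9.06% and 7.5% of all genes. The 6 called were the granule genes Pcsk1, Scg2, Ptprn, Ptprn2 and Ucn3 and the incretin receptor gene Glp1r. In 32 other settings of the analysis Pcsk1 and Scg2 were called every time, Ptprn in 24, Ptprn2 in 19, Ucn3 in 18 and Glp1r in 17. The count itself moved to 15 without DC replicate 1, to 11 without MC replicate 1, to 3 without WT replicate 3, DC replicate 4, MC replicate 2 or MC replicate 3, and to 2 without DC replicate 2, DC replicate 3 or DMC replicate 4. Libraries with high and with low levels of Y-linked genes occurred in every group. In DC only replicate 1 was high (mean log2 level 9.27, the others 0 to 0.42). Whether sex played a part in the move to 15 was not tested. The shares of all genes called in these other settings are not given here.

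Among granule genes the largest difference was that of Scg2 (ENSMUSG00000050711.7, chromosome 1, 79434669 to 79440120, GRCm38), a granin that packs dense-core granules. Its normalized counts were 847, 1875, 297 and 1231 in the WT libraries, and 3025, 639, 521 and 422 in DC. They were 1691, 2538, 6517 and 6873 in MC, and 4258, 5127, 2846 and 11470 in DMC. DMC lay above WT in every library, whereas MC and WT overlapped and DC replicate 1 reached into the range of both Men1 floxed groups. The difference by Men1 genotype was 2.38 ± 0.47 (SE), or 5.22-fold (limma adjusted p = 0.0111).

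Pcsk1 (ENSMUSG00000021587.5, chromosome 13, 75089826 to 75134861) encodes the prohormone convertase that starts the cleavage of proinsulin. It had 302, 317, 191 and 350 normalized counts in WT and 561, 261, 186 and 203 in DC. It had 486, 506, 830 and 1090 in MC and 541, 724, 899 and 1215 in DMC. Pcsk1 was the only member, 1 of 33, with every MC library above every WT library. The share among all genes was 4.16%, so members did not separate more often in this comparison. The DMC libraries stood above WT in Pcsk1 as well. The difference was 1.42 ± 0.25, or 2.68-fold (limma adjusted p = 0.00542).

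Ptprn, which encodes the granule membrane protein IA-2, a diabetes autoantigen, had 42.4, 89.5, 21.2 and 52.7 normalized counts in WT and 178, 33.2, 41.0 and 20.9 in DC. It had 67.4, 152, 212 and 331 in MC and 164, 225, 115 and 406 in DMC. DMC again lay above WT throughout, while MC replicate 1 fell within the WT range. The difference was 1.95 ± 0.44 (limma adjusted p = 0.024). Its relative Ptprn2, or phogrin, averaged 1972 ± 394 in WT, 1689 ± 367 in DC, then 2902 ± 803 in MC and 2593 ± 278 in DMC (SD, n = 4), a smaller difference of 0.59 ± 0.14 (limma adjusted p = 0.0354). Ucn3, the beta-cell peptide urocortin 3, averaged 54.2 ± 44.2, 43.3 ± 36.5, 150 ± 89.2 and 199 ± 141 in the same order, a difference of 1.97 ± 0.48 (limma adjusted p = 0.0354).

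The granins and processing enzymes best known as endocrine markers did not share this size. Chga had 1094, 2654, 485 and 1913 normalized counts in WT, 4642, 1109, 1025 and 616 in DC, then 722, 1433, 3665 and 3635 in MC and 2025, 2417, 1400 and 5781 in DMC. All groups overlapped, and the difference was 0.74 ± 0.48 (limma adjusted p = 0.485). Cpe, the carboxypeptidase that trims cleaved prohormones, had 1333, 1306, 766 and 1368 in WT, 2168, 1220, 1078 and 946 in DC, then 418, 779, 1537 and 1666 in MC and 1180, 1552, 833 and 3130 in DMC. Its difference was −0.04 ± 0.31 (limma adjusted p = 0.971), and its sign turned under several other settings. The other 9 granule members had positive differences between 0.69 and 1.58 that missed the threshold. They were Slc30a8, the zinc transporter of insulin granules (1.58, limma adjusted p = 0.0575), Scg5 (1.52), Scg3 (1.45), Pcsk1n (1.32), Rab3b (1.27), Chgb (0.97), Pcsk2 (0.96), Sytl4 (0.70) and Syp (0.69). Pcsk2, the convertase that yields glucagon, ranged from 397 to 5310 normalized counts and Slc30a8 from 107 to 1772.

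**Figure D2:**
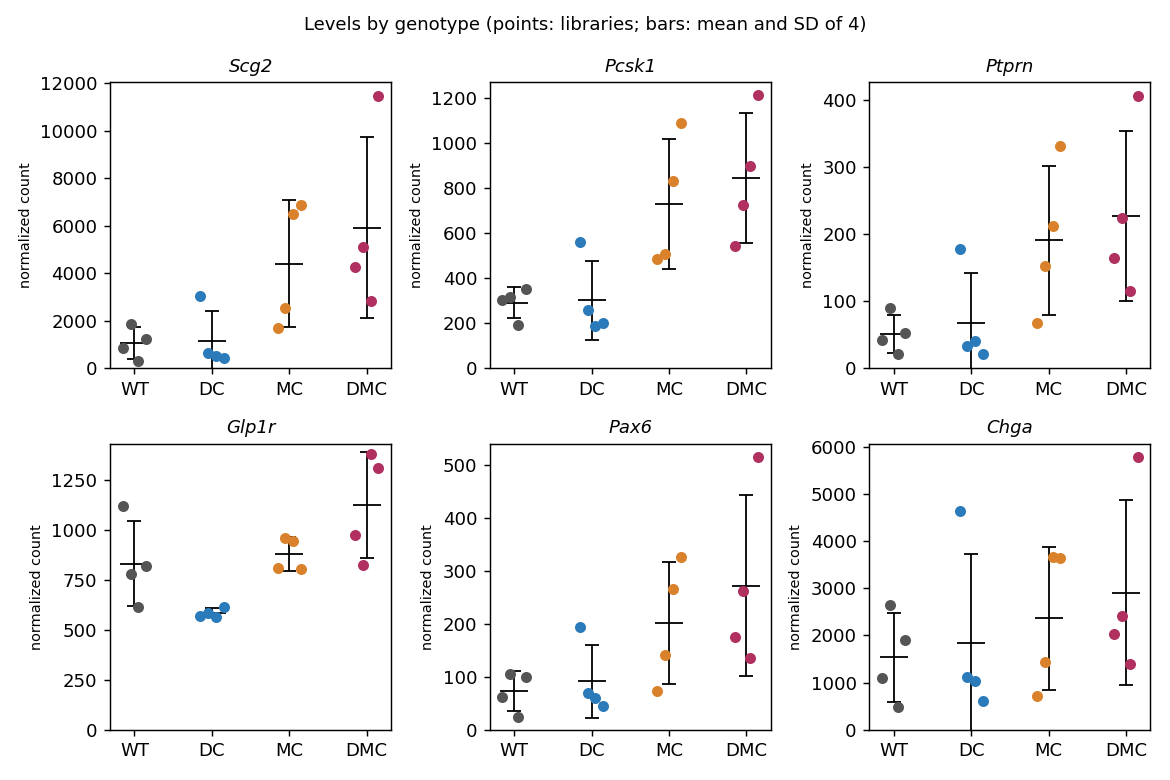
Normalized counts of 6 members in each library by genotype, on linear axes from 0, with the mean and SD of 4 libraries as bars (lower bars that pass below 0 end at the axis). Every MC and DMC library had more Pcsk1 than any WT library, and Chga overlapped in all groups.

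None of the 9 transcription factors passed the test by Men1 genotype, although all 9 differences were above 0, with a median of 1.31. Pax6, a homeodomain factor of all islet cell types, came nearest. It had 61.9, 105, 24.5 and 99.9 normalized counts in WT and 194, 68.9, 59.3 and 44.0 in DC. It had 72.3, 141, 265 and 326 in MC and 175, 263, 135 and 515 in DMC. DMC lay above WT in every library, and the difference was 1.52 ± 0.41 (limma adjusted p = 0.0565).

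Isl1, a LIM-homeodomain factor, had 51.3, 52.4, 22.8 and 50.5 normalized counts in WT, 122, 47.3, 60.4 and 14.3 in DC, then 63.7, 46.0, 138 and 173 in MC and 96.5, 171, 92.7 and 273 in DMC. Rfx6, which acts in endocrine differentiation, had 17.7, 50.6, 9.79 and 37.3 in WT, 95.5, 35.7, 27.3 and 13.2 in DC, then 24.5, 69.8, 91.0 and 119 in MC and 72.9, 117, 52.3 and 164 in DMC. Mafa, the factor of mature beta cells, had 35.4, 38.9, 4.90 and 32.9 in WT, 108, 17.4, 29.6 and 11 in DC, then 25.7, 30.2, 108 and 142 in MC and 41.9, 51.4, 56.2 and 254 in DMC. In all 3, every DMC library exceeded every WT library and DC replicate 1 was the high library of its group. Their differences were 1.34 (limma adjusted p = 0.0902), 1.42 (0.1) and 1.37 (0.232).

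Pdx1, the pancreatic and beta-cell factor whose promoter drives the Cre, was the most abundant of the transcription factors at 58.7 normalized counts per kb. It had 126, 123, 71.8 and 172 normalized counts in WT, 138, 118, 128 and 95.8 in DC, then 90.7, 125, 148 and 192 in MC and 104, 102, 99.3 and 194 in DMC. The groups overlapped throughout, and the difference was 0.10 ± 0.20 (limma adjusted p = 0.861). Nkx2-2 differed by 0.04, Nkx6-1 by 0.71, Insm1 by 1.22 and Neurod1 by 1.31, none past the threshold. Exons of Nkx2-2 share 9.67% of their bases with an antisense gene and those of Neurod1 7.37% with Cerkl on the same strand. Among granule genes Syp shares 16.8%, Rab3b 8.99%, Pcsk1n 6.16% and Ptprn 4.45% with genes on the opposite strand, and Pcsk2 less. The strand setting of the counting is not given in the sources used here, so reads of these genes and their neighbours may be mixed.

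Among glucose-sensing genes only Glp1r, the receptor of the incretin GLP-1, was called. It had 1119, 777, 614 and 817 normalized counts in WT and 570, 586, 565 and 616 in DC. It had 808, 959, 945 and 803 in MC and 976, 824, 1382 and 1310 in DMC. DC was both the lowest and the tightest group, and every DMC and MC library lay above every DC library. The difference by Men1 genotype was 0.51 ± 0.12 (limma adjusted p = 0.034). Glp1r was also the 1 member called in DMC against DC (0.91 ± 0.17, limma adjusted p = 0.0266), where 0.534% of all genes were called. That call was lost without DC replicate 2 (adjusted p = 0.0891), DC replicate 3 (0.0837), DC replicate 4 (0.0707), DMC replicate 3 (0.0817) or DMC replicate 4 (0.11).

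G6pc2, the islet glucose-6-phosphatase that opposes glucokinase, had 461, 807, 279 and 723 normalized counts in WT, 1348, 520, 353 and 300 in DC, then 271, 587, 1788 and 2131 in MC and 1095, 1517, 538 and 2115 in DMC. Slc2a2, the glucose transporter GLUT2, had 184, 339, 94.6 and 235 in WT, 739, 202, 154 and 128 in DC, then 147, 216, 535 and 564 in MC and 347, 478, 319 and 1148 in DMC. Both overlapped between all groups, with MC split between a low and a high pair of libraries. Their differences were 0.96 (limma adjusted p = 0.294) and 0.89 (0.294).

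Gipr, the receptor of the incretin GIP, had 19.4, 37.1, 11.4 and 24.2 normalized counts in WT, 77.1, 12.4, 21.6 and 17.6 in DC, then 18.4, 60.3, 102 and 110 in MC and 67.4, 73.8, 36.6 and 140 in DMC. Ffar1, a receptor for long-chain fatty acids, had 14.1, 55.2, 31.0 and 29.6 in WT, 66.7, 15.8, 26.2 and 13.2 in DC, then 29.4, 34.9, 87.9 and 131 in MC and 66.5, 65.6, 50.9 and 211 in DMC. In each gene 1 DMC library, replicate 3, fell just below the highest WT library. Differences were 1.47 (limma adjusted p = 0.0817) and 1.35 (0.107). The potassium channel genes Abcc8 and Kcnj11 differed by 1.15 and 1.19 without passing, and Gcgr by 0.21 at 0 to 23.8 normalized counts.

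Between single genotypes the spread among 4 libraries left few calls. The DC libraries were not called apart from WT for any member (0 of 33, limma, background 0.0211%), and the members' median difference was 0.15. At an unadjusted p under 0.05, 0 members were higher (7.47% of all genes) and 1, Glp1r, was lower (4.24%). Against WT, MC gave 0 calls (background 0.781%) with a median of 0.99 (0.14 with the insulin covariate described below) and 11 members higher at an unadjusted p under 0.05 (7.51% of all genes). DMC gave 0 calls against WT (background 0.788%) with a median of 1.47 and 21 members higher at an unadjusted p under 0.05 (8.43%). Those 0 calls became 1 in MC and 2 in DMC without DC replicate 1, and 1 and 6 with DESeq2. Shares of all genes called in those settings are not given here. DMC against DC had a median of 1.27. At an unadjusted p under 0.05 (limma) its higher members were the granule genes Pcsk1, Ptprn, Ptprn2, Rab3b, Scg2, Scg3, Scg5, Slc30a8 and Ucn3. Others were the transcription factors Insm1, Isl1, Pax6 and Rfx6 and the glucose-sensing genes Ffar1, Gipr, Glp1r and Kcnj11. No member was lower, and of all genes 7.21% were higher and 6.03% lower. DMC against MC had a median of 0.39 with 0 calls (background 0.00703%). There 0 members had an unadjusted p under 0.05, where 3.19% of all genes were higher and 2.38% lower. The interaction of both floxed genes gave 0 calls by limma (background 0%), with Glp1r alone under an unadjusted 0.05, as were 3.52% of all genes in that direction (0.80 ± 0.25, limma adjusted p = 0.42).

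Separation of whole groups was counted without a model. In DMC against WT, 11 of 33 members had every DMC library above every WT library, against 5.19% of all genes: Isl1, Mafa, Pax6, Rfx6, Pcsk1, Pcsk1n, Ptprn, Scg2, Scg3, Slc30a8 and Syp. In DMC against DC these were Glp1r, Ptprn2 and Ucn3 (background 3.55%). The group means rose in the order WT, DC, MC and DMC for 19 of 33 members and for 5.23% of all genes. Comparisons that share a group, such as the 3 against WT, are not independent of each other.

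Relative to insulin transcripts most of this movement shrank. Counts per 1000 summed Ins1 and Ins2 counts varied less on the log2 scale than the level itself for 28 of 33 members. Abcc8, the sulfonylurea receptor of the beta cell, spanned 18.6-fold in level over the 16 libraries but 1.76-fold relative to insulin. The 5 exceptions were Cpe, Glp1r, Nkx2-2, Pdx1 and Ptprn2. The insulin genes were themselves higher in the Men1 floxed libraries without passing the test, Ins1 by 1.35 ± 0.48 (limma adjusted p = 0.158) and Ins2 by 1.18 ± 0.46 (0.199).

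A granin pair stood apart in opposite directions once levels were read against insulin. Scg2 had 59.9, 67.5, 51.9 and 59.4 counts per 1000 insulin counts in WT and 54.2, 53.1, 44.9 and 59.2 in DC. It had 129, 113, 120 and 106 in MC and 133, 148, 113 and 116 in DMC. The lowest Men1 floxed library (106) lay well above the highest library without floxed Men1 (67.5). Chga had 77.4 to 95.5 counts per 1000 in the 8 libraries of WT and DC and 55.0 to 69.8 in the 8 of MC and DMC, so that it was lower in every one of the latter. Ptprn ran from 2.55 to 3.71 and from 3.91 to 6.79, also without overlap. Of all genes, 0.148% lay wholly above in this way and 0.0774% wholly below. The ratio of a gene that does not follow insulin carries the spread of insulin, which leaves it little room to separate. These shares are therefore no measure of how unusual separation is among members, most of which follow insulin.

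**Figure D3:**
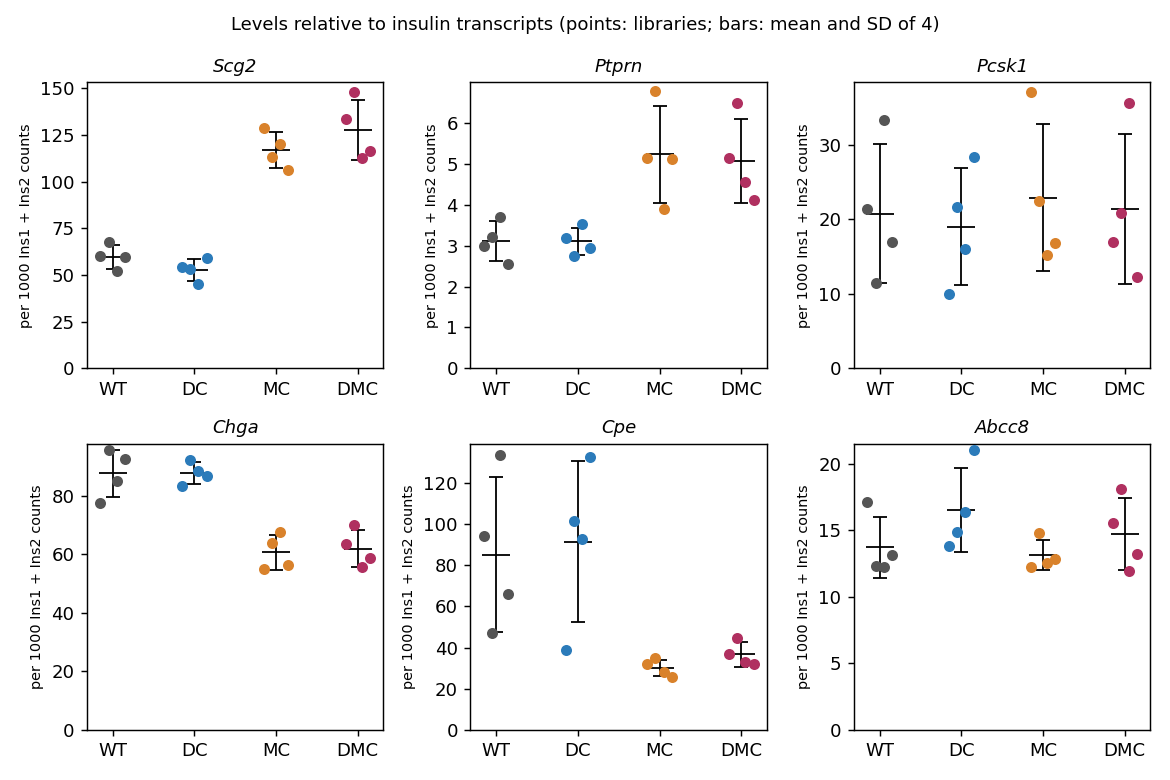
Counts of 6 members per 1000 summed Ins1 and Ins2 counts in each library by genotype, on linear axes from 0, with the mean and SD of 4 libraries as bars. Scg2 is at 44.9 to 67.5 in WT and DC and at 106 to 148 in MC and DMC, Chga moves the other way, and Abcc8 overlaps.

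With the insulin level, the mean log2 of Ins1 and Ins2, as a covariate in limma, the members' median difference by Men1 genotype fell from 1.22 to 0.20, and 6 of 33 members were called, 4 higher and 2 lower (background 1.07%, 0.556% higher and 0.513% lower). Higher were Scg2 (1.12 ± 0.10, limma adjusted p = 3.0e-05), Pcsk1 (0.84 ± 0.15, 0.0139), Ptprn (0.81 ± 0.16, 0.0225) and Ptprn2 (0.77 ± 0.16, 0.0288). Lower were Chga (−0.54 ± 0.08, 0.00729) and Cpe (−0.79 ± 0.17, 0.0351). Glp1r (0.45, 0.222) and Ucn3 (0.79, 0.19) no longer passed. Scg2 was called in all 26 other settings of this fit, with differences of 1.06 to 1.17, whereas it was the only member left without MC replicate 1 or with the glucagon level added, and 3 members were left without MC replicate 2. Scg2 passed in MC against WT (0.97, 0.00332), in DMC against WT (1.09, 0.00216) and in DMC against DC (1.27, 0.000345), and not in DC against WT (−0.18, 0.54). This covariate was chosen after the data were seen, and a value relative to insulin does not tell a change in the gene from a change in insulin.

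**Figure D4:**
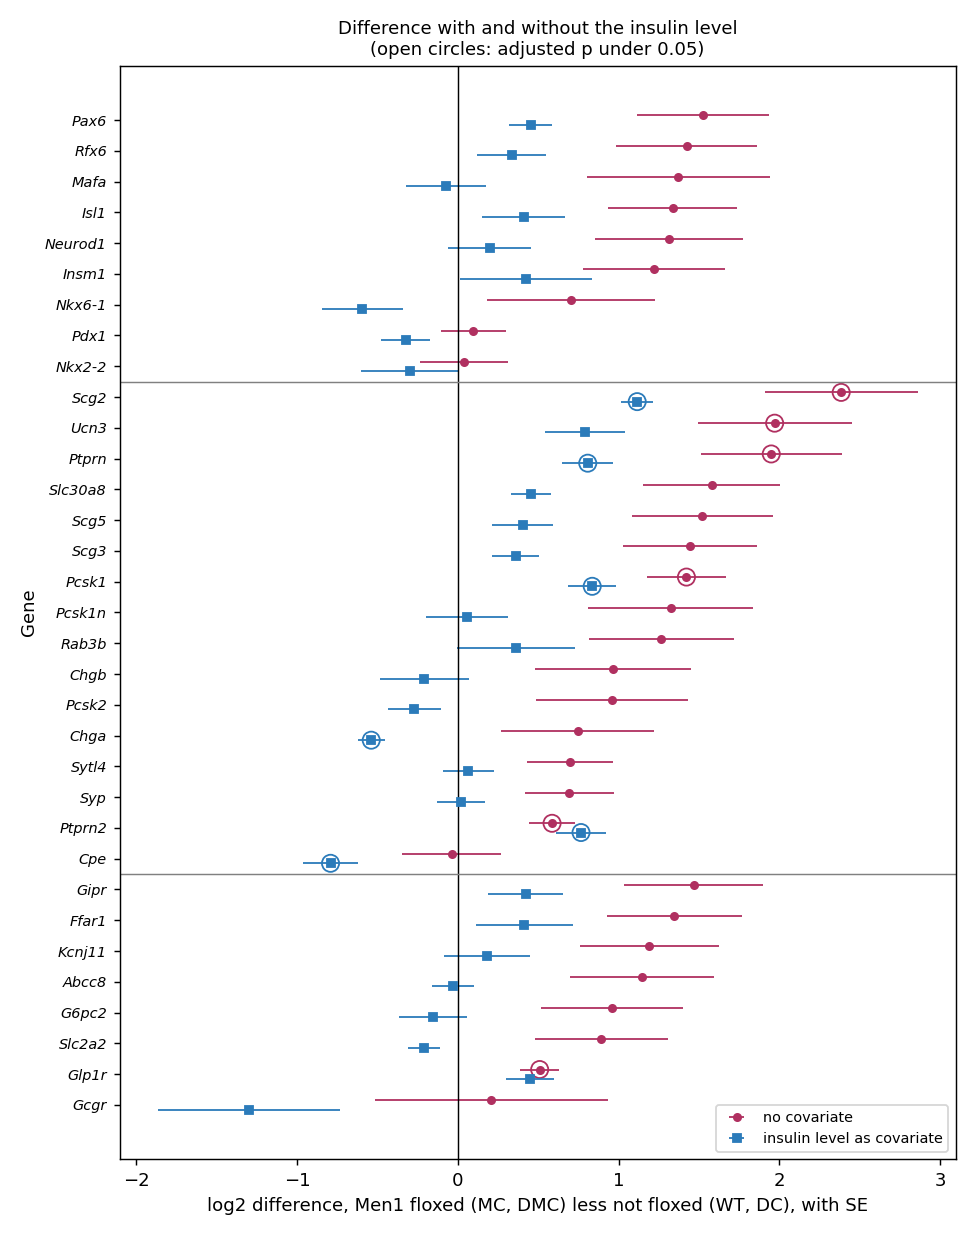
Log2 difference of Men1 floxed (MC, DMC) less not floxed (WT, DC) libraries with its SE for the 33 members, without a covariate (circles) and with the insulin level as covariate (squares); open circles mark an adjusted p under 0.05. The square is nearer 0 than the circle for 28 of 33 members, and squares run from −1.30 (Gcgr) to 1.12 (Scg2).

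Relative to insulin, Ghrl alone among the hormones of other islet cells had a difference above 0. Iapp, which is co-secreted with insulin, did not pass the test (0.01, limma adjusted p = 0.985). With the insulin covariate Pyy (−2.21, 1e-04) and Ppy (−2.28, 0.0313) were lower and Ghrl (3.11, 0.0124) higher by limma adjusted p. Gcg (−1.31, limma adjusted p = 0.184) and Sst (−0.37, 0.527) were below 0 without passing. Gastric gland markers, described below, were also higher with floxed Men1, and the source of the Ghrl transcripts was not tested. Pyy stood at 9.5 to 19.7 counts per 1000 insulin counts without floxed Men1 and at 2.05 to 4.83 with it, and Ppy at 5.50 to 16.9 and 0.656 to 3.91. Ghrl stood at 0.228 to 1.66 and 1.60 to 13.8. Gcg ranged from 386 to 993 and from 77.0 to 845, and Iapp from 118 to 174 and from 120 to 158. Chga is expressed in several islet cell types. Its difference was −0.40 with the glucagon level added (limma adjusted p = 0.173) and −0.49 without MC replicate 1 (0.0513), and stayed between −0.60 and −0.40 over all 26 other settings of that fit, 24 of which called it.

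Other genes of the same pathway were read in the same contrast by Men1 genotype, where 1.88% of all genes were called higher and 1.15% lower. Of 18 further granule and exocytosis genes tested, 5 were higher and 0 lower: Scgn, a calcium sensor of islet cells (2.12, limma adjusted p = 0.0128), the synaptotagmin genes Syt4 (2.17, 0.0164) and Syt7 (1.11, 0.0275), Snap25 and Cadps. Of 11 further transcription factors 1 was higher, Mlxipl, the glucose-responsive factor ChREBP (0.88, limma adjusted p = 0.0204), which also passed in DMC against WT (0.0478). Of 14 further sensing and channel genes the cation channel gene Trpm5 was higher (2.23, limma adjusted p = 0.024) and the calcium channel gene Cacna1d lower (−0.43, 0.0278). Neurog3, Pax4 and Fev were not analysed here.

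Marker lists of other cell types were read beside these results. Gastric gland markers were higher by Men1 genotype for 8 of 8 genes, with the smallest p in Cym, Pga5 and Pgc, and their mean log2 level was 3.31 to 5.40 in WT and DC libraries and 7.77 to 10.8 in MC and DMC libraries. Because the ranges do not overlap, that signal and the Men1 genotype cannot be told apart in these libraries. Neuron markers, which share granule genes with islets, were higher for 3 of 5 genes: Th (2.36, limma adjusted p = 0.00512), Tubb3 (2.07, 0.0165) and Elavl4 (1.45, 0.0414). Ret and Prph were not called. Prph was −0.68 in MC against WT (limma adjusted p = 0.614), −0.27 in DMC against WT (0.861) and 0.40 in DMC against DC (0.804). The mean level of the 5 neuron markers was 3.36 to 5.27 without floxed Men1 and 4.47 to 6.16 with it. The part of neurons in the granule results was not tested. Of gut endocrine markers only Hdc was in the table (−0.25, limma adjusted p = 0.834). None of 11 acinar, 7 ductal or 10 lymphoid markers was called by limma. At an unadjusted p under 0.05 the calls were 2, 1 and 0, where 9.06% of all genes were higher and 7.5% lower. The mean log2 level of the lymphoid markers ran from 3.87 to 8.84 in WT and DC and from 3.92 to 7.41 in MC and DMC.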

How the data were processed

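Strand-specific total RNA libraries of 16 pancreases, 4 per genotype, were grouped by their labels, which call them independent biological replicates. The submitters' processing notes name the aligner STAR 2.6.0b, the build GRCm38 and DESeq2. How reads were counted, with which strand setting and annotation, is not given in the sources used here. What the authors deposited is a normalized count signal, in which each library's counts carry a size factor of 0.566 to 1.63. Within a tolerance of 0.01 reads, 100% of values came out as whole reads of 1 step per library, and these recovered reads (13481063 to 23728309) served edgeR 4.0.16 and DESeq2 1.42.0 as alternatives. A 0 allows up to 3 reads, or 1.84 to 5.30 normalized counts, for counting error only. Libraries of 1 group differed by a chi-square of 8.63 to 132.6 per degree of freedom, so none repeated another.

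Genes with at least 10 normalized counts in at least 4 libraries were tested, which kept 14220 genes and all 33 members. Values entered limma 3.58.1 (trend, R 4.3.3) as log2(normalized count + 1), all 16 libraries in 1 fit, with Benjamini-Hochberg adjustment over all genes and a threshold of 0.05. The script was tested on simulated data. Fold changes are on the log2(value + 1) scale and understate those of scarce genes. Exon lengths came from GENCODE mouse release 21, which held 15152 of the 15156 identifiers. Members, lists and tests were chosen with earlier results of these data known. Every member is named. Per role, the 3 most abundant per kb and the 3 with the smallest p by Men1 genotype have values in every library, and of other lists at most 3 genes past the threshold are described. The 5 called members of the further granule list and Chga, Ucn3 and Ptprn2 relative to insulin were named after their values were seen. Alternatives covered the pseudocount, filter, scaling, weights, tool, a replicate block, single libraries left out, and Y-linked, lymphoid and insulin levels as covariates, the last chosen after seeing the data.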

Additional observations from a re-analysis of the deposited data

Results flagged for a closer look

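In 8 of 132 gene and genotype groups of 4 libraries, 1 library lay far from the other 3 by Dixon's criterion, where chance gives about 1 in 20, or 6.6. WT replicate 3 was low for Cpe (766.1 normalized counts against 1306 to 1368), Isl1 (22.844 against 50.5 to 52.4) and Mafa (4.8952 against 32.9 to 38.9). DMC replicate 4 was high for Mafa (254.03 against 41.9 to 56.2), Nkx2-2 (96.86 against 23.7 to 30.0) and Pdx1 (193.72 against 99.3 to 104). DC replicate 1 was high for Abcc8 (769.39 against 150 to 190) and Pcsk1n (97.322 against 19.8 to 21.6).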

How the results depend on the processing

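With single libraries left out, the members' median difference ran from −0.29 to 0.42 in DC against WT and from −0.079 to 0.74 for the interaction, so neither has a settled sign. The other medians stayed above 0 under every alternative run, and were lowest for the comparisons by Men1 alleles with the insulin covariate, at 0.14 in MC against WT, 0.35 in DMC against WT, 0.22 in DMC against DC and 0.20 by Men1 genotype. Counts of called members depended on the setting. Apart from the insulin covariate by Men1 genotype, the share of all genes called under each alternative is not given here. A changed count is therefore not read as a result about the members. In MC against WT the count of 0 became 1 with DESeq2 and 1 without both DMC replicate 4 and DC replicate 1, and 2 (Chga and Scg2) with the insulin covariate; leaving out single libraries gave 0 to 1. In DMC against WT it became 1 with library quality weights, 6 with DESeq2 and 1 with the insulin covariate, and 0 to 2 with single libraries left out. In DMC against DC the count of 1 became 18 with quality weights, 3 with DESeq2, 0 with only the compared groups, 2 with the lymphoid covariate and 0 to 5 with single libraries left out. By Men1 genotype the count of 6 became 19 with quality weights, 17 with DESeq2, 2 without both WT replicates 2 and 3, and 2 to 15 with single libraries left out. With the insulin covariate the count of 6 became 1 when the glucagon level was added and 1 to 6 with single libraries left out. The causes of these changes were not tested.

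Replicate numbers did not pair the libraries: correlations of same-numbered libraries ran from −0.371 to 0.384 over 24 pairs, 11 of them over 0.1. With a replicate block the calls became 0 in DMC against DC, 2 by Men1 genotype and 3 with the insulin covariate. With the insulin covariate the difference by Men1 genotype turned from above to below 0 for 11 members: Abcc8 (−0.031), Chga (−0.54), Chgb (−0.21), G6pc2 (−0.15), Gcgr (−1.30), Mafa (−0.073), Nkx2-2 (−0.30), Nkx6-1 (−0.59), Pcsk2 (−0.27), Pdx1 (−0.33) and Slc2a2 (−0.21). Of these, Chga alone passed the threshold. Pdx1 ran from −0.020 to 0.19 with single libraries left out, negative only for WT replicate 3 and DMC replicate 4 (−0.018), and was −0.063 without both WT replicates 2 and 3. Cpe, at −0.04, turned positive with quantile scaling (0.017), edgeR (0.095), DESeq2 (0.096) and the Y-linked covariate (0.027), and ran from −0.22 to 0.16 with single libraries left out. Depth limits Gcgr, listed at 0 reads in 2 libraries.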
